A study of Mus musculus with 17 samples.

Results

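The genes considered here encode the main building blocks of the basement membrane: the collagen IV chains Col4a1 and Col4a2, the laminin chains Lama1, Lama5, Lamb1, Lamb2 and Lamc1, the linker proteins Nid1 and Nid2, and the heparan sulfate proteoglycan perlecan (Hspg2). The 10 genes were chosen by name, with their read pairs in these libraries already known: the loop at the Col4a1 and Col4a2 start sites had the smallest p among the loops called higher in double positive cells, and Lamc1 lies in a part of chromosome 1 with an excess of bulk read pairs. The values of these 3 genes are therefore given as a description. A loop joins a pair of chromatin regions, its anchors, and was assigned to a gene if either anchor lay no more than 5 kb from an annotated transcription start site (TSS) in mm9. By this rule 9 of the 10 genes had loops, 752 of the 1211657 loops in all, on 30 of 216081 anchors. Double positive loops use 15082 of the 216081 anchors, so that most anchors anywhere have no double positive read pair.

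H3K27ac HiChIP captures contacts between regions that carry this mark of active promoters and enhancers. It was performed on cells from R1 mouse embryonic stem cells (mESC) that had formed embryoid bodies (EBs) and were kept for 4 days in 0.5 µM retinoic acid (RA), in both groups alike. The bulk group holds 12 libraries of unsorted EB cells, and the double positive group (cluster2 in the labels) holds 5 libraries of cells sorted by FACS for EpCAM and CD38, from 5 sorts. The labels do not say whether the bulk libraries came from separate cultures, so that p-values measure the spread between these libraries, which may be technical. Between 65148 and 241068 read pairs per bulk library and between 50508 and 118179 per double positive library lay in loops. The labels call both groups mouse embryonic stem cell, and no sorted fraction that is negative for the markers was compared, so that a contact made by fewer cells and a weaker contact in each cell cannot be told apart.

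Basement membranes are thin sheets of matrix under epithelia. Laminins, trimers of an alpha, a beta and a gamma chain, assemble into a first network on the cell surface. Collagen IV, in its common form built of Col4a1 and Col4a2 chains, forms a second, covalently linked network, and nidogens and perlecan connect them. In the early mouse embryo the endoderm of the yolk sac secretes large amounts of collagen IV and of the laminin that contains Lama1, Lamb1 and Lamc1, and embryoid bodies lay down a basement membrane between an outer endoderm layer and the inner epithelium. Read pairs in loops are contacts at these genes and not their mRNA or protein.

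Col4a1 and Col4a2 lie head to head on chromosome 8 of mm9, on opposite strands (gene bodies 11198423 to 11312826 and 11312805 to 11449287), and their first exons overlap by 22 bases. The stretch that holds both start sites is shown because the strongest loop of these genes has an anchor on it, at chr8:11312801-11312830, plus strand, with the letters GGGCGG, known as a GC box, in capitals.
Col4a1/Col4a2: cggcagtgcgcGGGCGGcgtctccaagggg
The 150 bases before the outermost start site of Lama1 (chr17:68046455-68046604, plus strand), Lamb1 (chr12:31949949-31950098, plus), Hspg2 (chr4:137024484-137024633, plus) and Lamc1 (chr1:155179917-155180066, minus) are shown because single loops held much of the double positive read pairs of Lama1, Lamb1 and Hspg2, and Lamc1 had no read pair there. They were read from mm9, with GGGCGG and CCAAT (both strands) in capitals.
Lama1: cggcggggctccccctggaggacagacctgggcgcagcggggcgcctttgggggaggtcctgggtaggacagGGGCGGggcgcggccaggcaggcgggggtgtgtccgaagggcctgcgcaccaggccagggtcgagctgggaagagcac
Lamb1: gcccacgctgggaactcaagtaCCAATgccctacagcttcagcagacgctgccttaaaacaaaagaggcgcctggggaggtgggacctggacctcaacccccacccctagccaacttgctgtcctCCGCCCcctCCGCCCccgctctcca
Hspg2: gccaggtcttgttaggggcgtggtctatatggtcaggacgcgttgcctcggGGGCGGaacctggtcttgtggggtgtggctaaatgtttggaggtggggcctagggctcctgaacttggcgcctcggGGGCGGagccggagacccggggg
Lamc1: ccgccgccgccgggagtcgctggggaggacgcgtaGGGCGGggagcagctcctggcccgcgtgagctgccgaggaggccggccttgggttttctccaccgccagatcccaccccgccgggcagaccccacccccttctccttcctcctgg

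In windows from 250 bases before to 50 bases after the outermost start site, GGGCGG occurred on either strand in 9 of the 10 genes and in 43.4% of the windows of all protein-coding genes. Lamb2, whose window had a GC content of 44.0%, was the exception, and the other 9 windows had between 60.7% and 75.3%, against a median of 55.0% over all genes. CCAAT occurred in 6 of 10 windows and in 37.9% of all. None of the 10 windows held GATAA, the core of GATA factor sites, which 23.6% of all windows held. The same was true of TGTTTAC, bound by forkhead factors (3.11% of all), and of AGGTCA, bound by nuclear receptors (14.4% of all). It was also true of TGANTCA (6.93% of all), a pattern that includes the AP-1 consensus but is wider. ACAAT, the core of SOX sites, occurred in the Lamb2 window and in 28.4% of all. These matches describe letters and not binding.

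The question was how contacts of these promoters differ between double positive cells and the mixture from which they were sorted. Collagen IV, Lamb1, Lamb2 and Hspg2 had more read pairs in double positive cells, Lama5 had fewer, Lama1 did not pass the test, and Lamc1 and Nid2 had none. Levels per gene are given as CPM, read pairs per library scaled by edgeR's TMM factors. Of the 9 genes with enough read pairs to test, Col4a1, Col4a2 and Lamc1 had been chosen with these values known, and Nid2 passed the filter on low counts through its bulk read pairs alone. Of the other 5, Lamb1, Lamb2 and Hspg2 were higher and Lama5 was lower at an adjusted p under 0.05 (edgeR quasi-likelihood test), and Lama1 was not called. Over all 14115 genes tested, 20.6% were called higher and 42.8% lower, with a median log2 fold change of -0.52. Scaling matters here because TMM lowers the double positive values 3.48-fold against the bulk values: by library size alone the median of all genes was 1.21 rather than -0.52, so a value is read against the median of all genes under its scaling.

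**Figure D1:**
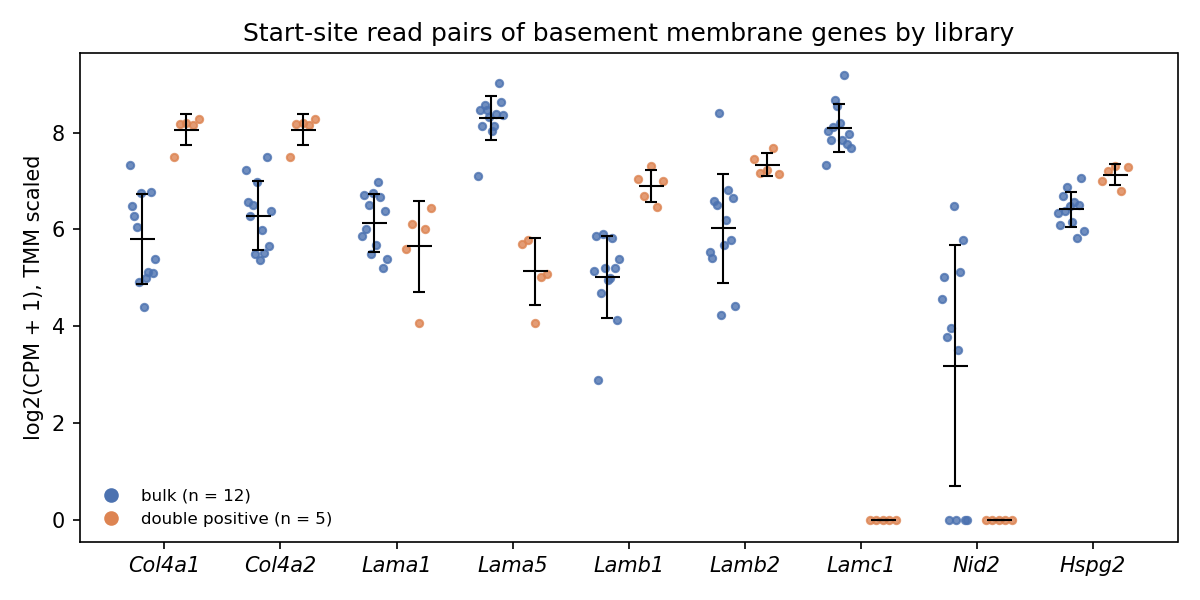
Log2 of CPM plus 1 for the 9 genes with loops. Points are the 12 bulk and 5 double positive libraries and bars the mean ± SD of the log2 values; Col4a1 lies higher in all 5 double positive libraries than in any bulk library, and Lamc1 and Nid2 lie at 0 in all 5.

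Col4a1 and Col4a2 share their start region and had the same double positive read pairs in each library, and were treated as 1 locus. Together they had 49, 59, 37, 36 and 75 read pairs in the 5 double positive libraries and 3 to 21 with a median of 8 in the bulk libraries. In CPM these were 270 ± 51.8 (SD, n = 5) and 98.6 ± 58.0 (SD, n = 12), and 4 of the 5 double positive libraries lay above every bulk library. Double positive library 1 had 179 CPM, and the others 284 to 308. The log2 fold change was 1.99 for Col4a1 and 1.66 for Col4a2, which is not tested since this locus was chosen for it.

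In double positive cells 1 loop accounted for 77.3% of the locus. It joins an anchor in a Col4a1 intron (chr8:11307296-11310388) to the anchor over both start sites (chr8:11311491-11318467), with a span of 6137 bp between their middles, and had 38, 38, 33, 27 and 62 read pairs in the double positive libraries. In the bulk libraries it had 7 read pairs in all, from 4 of the 12 libraries. Over loops with spans of at least 20 kb the log2 fold change was 0.28 for Col4a1 and -0.060 for Col4a2. Over loops between anchors that both groups use it was 3.29 for each gene (median of all genes 0.42).

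Loops over 100 kb held 58 of the 256 pooled double positive read pairs of collagen IV (22.7%) and 52 of the 110 in bulk (47.3%). The loop from the intronic anchor to an anchor inside Col4a2 (chr8:11418057-11421949, span 111161 bp) had 9 double positive read pairs in 3 libraries and none in bulk. Against a floor of 3 read pairs over the bulk group this was 2.29-fold higher (TMM scaled), a value that leaves out the counting error of the 9 read pairs. In bulk the start anchor met another Col4a1 intron (chr8:11297887-11301267), and the intronic anchor met a further one (chr8:11278356-11283007), with 5 read pairs each. Neither contact had a double positive counterpart, and no double positive loop uses these 2 further anchors. The start anchor also reached the start sites of Ing1, a chromatin reader, and Cars2, a mitochondrial tRNA synthetase (chr8:11554616-11559271, span 241964 bp), with 10 read pairs in 4 double positive libraries and 1 in bulk. Over all loops of the locus, anchors near the start sites of these 2 genes took 25 double positive and 3 bulk read pairs. The other 5 anchors of the locus, near internal start sites, had no double positive read pair.

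The 5 genes whose levels over the 17 libraries were most like those of the collagen IV locus were Zfp13, Ly6g6c, Ddah2, Fam158a and Fiz1. Their root mean square differences in log2(CPM + 1) were 0.53 to 0.59, against a median of 2.77 over 14103 genes that share no loop with the locus. Ly6g6c and Ddah2 had the same values.

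Lama1, the alpha chain of the embryonic laminin, did not pass the test at the gene level. It had 13, 14, 2, 8 and 21 read pairs in the double positive libraries and 2 to 20 (median 5.5) in the bulk libraries. In CPM these were 56.2 ± 26.5 (SD, n = 5) and 74.9 ± 30.0 (SD, n = 12), and the groups overlapped. Its log2 fold change was -0.41 ± 0.32 (SE; adjusted p = 0.265, edgeR). By library size alone the sign turned, to 1.34 (adjusted p = 0.000428), but relative to the median of all genes Lama1 stood at 0.11 with TMM and at 0.12 by library size. Over loops between anchors that both groups use, which hold 8 of its 90 bulk and all 58 double positive read pairs, it was 1.67 (median of all genes 0.42), and over spans of at least 20 kb it was -3.20. In both cases 1 group alone reached the filter on low counts, so that no p is given.

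Upstream of Lama1 a single contact stood out. Of 58 double positive read pairs, 53 joined the start anchor (chr17:68045591-68052276) to an intergenic anchor (chr17:68031917-68036563) whose near edge lies 10042 bp before the start site, the span being 14693 bp. This loop had 11, 13, 2, 8 and 19 read pairs in the double positive libraries and 4 in the bulk libraries, from 3 of 12, and 4 of the 5 double positive libraries lay above every bulk library. This was a log2 fold change of 3.06 ± 0.58 (SE). Like the tested loops of Lamb1, Hspg2 and Lamb2 described below, it reached the filter of 20 read pairs through the double positive libraries, so that its p is given from the fit of all 1211657 loops without a filter (log2 fold change 4.24, adjusted p = 0.00903, edgeR). The median log2 fold change of all loops was -0.78 in that fit and 0.78 in the fit with the filter, so their values stand on different centres. In bulk the most used partners lay inside the gene: 39 of 90 read pairs (43.3%) had their partner within Lama1, and none of the 58 double positive read pairs did. The intronic anchors that the start anchor met most in bulk (chr17:68055377-68057116, 8 read pairs, and chr17:68059997-68063363, 7 read pairs) occurred in no double positive loop.

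Lamb1, the beta chain of the same laminin, had more read pairs in double positive cells. It had 36, 21, 20, 11 and 31 read pairs in the double positive libraries and 1 to 11 (median 3) in bulk. In CPM these were 121 ± 27.3 (SD, n = 5) and 35.6 ± 16.0 (SD, n = 12), and every double positive library lay above every bulk library. The log2 fold change was 1.76 ± 0.31 (SE; adjusted p = 8.58e-06, edgeR). Over spans of at least 20 kb it was 0.36 (adjusted p = 0.503), the short loops being left out. Over loops between anchors that both groups use it was 3.32 (median of all genes 0.42). These loops hold 5 bulk read pairs, so that Lamb1 passed the filter there through the double positive libraries and no p is given.

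The start anchor, an upstream anchor and an inner anchor, all joined to each other, held 105 of the 119 double positive read pairs. An intergenic anchor (chr12:31929635-31934760), 15339 bp before the start site, met the start anchor (chr12:31946278-31951229) in 52 double positive read pairs (19, 7, 10, 4 and 12 by library) and in 4 bulk read pairs, a log2 fold change of 3.04 ± 0.58 (SE), or 4.23 without a filter (adjusted p = 0.0104, edgeR). The start anchor met an anchor inside the gene (chr12:31954701-31957677, span 7435 bp) in 34 double positive read pairs (6, 8, 8, 1 and 11) and in 1 bulk read pair, a log2 fold change of 3.83 ± 0.76 (SE), or 4.80 without a filter (adjusted p = 0.0287, edgeR). The outer anchors met each other in 19 double positive read pairs from all 5 libraries and in none from bulk. Against the same floor this was 4.84-fold higher, again without the counting error of the double positive read pairs. A further partner was the start region of Dld, a mitochondrial dehydrogenase subunit, with 7 double positive read pairs and none in bulk.

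**Figure D2:**
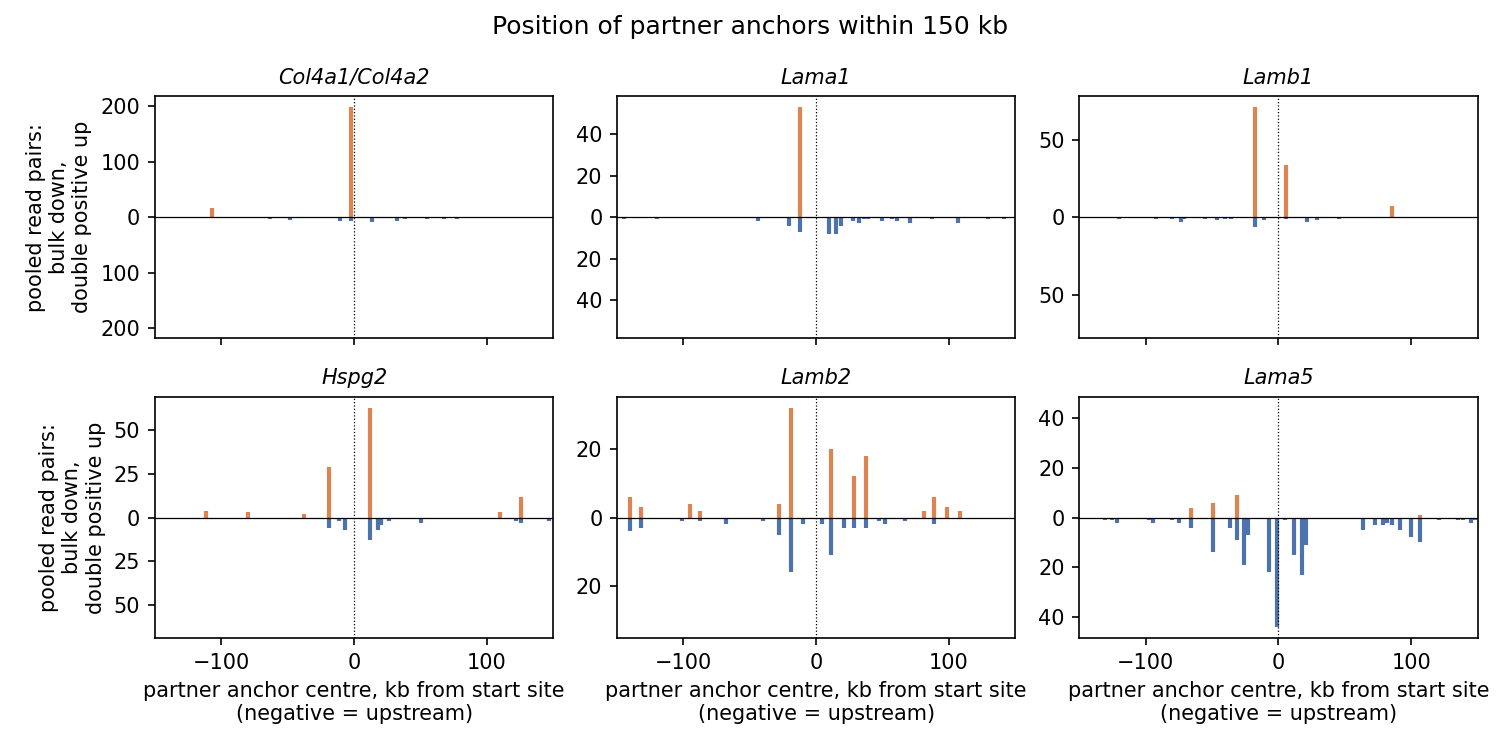
Pooled read pairs (y, double positive up, bulk down, not scaled for depth) against the position of the partner anchor's centre from the outermost start site (x, kb, upstream negative; for Col4a1/Col4a2 along Col4a1) within 150 kb. Where both anchors lie near a start site of the gene, the one with the higher coordinate is plotted. Double positive read pairs of Lama1 and Lamb1 stack on few positions, with 53 of 58 on the upstream anchor of Lama1, whereas those of Lamb2 spread over many.

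The upstream anchors of Lama1 and Lamb1 are shown by the letters TGANTCA that they hold, since they are the distal elements on which these results turn. This pattern is wider than the AP-1 consensus, TGACTCA or TGAGTCA. Some stretches below read TGAATCA or TGATTCA instead, and the counts and the median are of the wider pattern. TGANTCA, which reads the same on both strands, occurred 5 times in the Lama1 anchor and 3 times in the Lamb1 anchor, 1.08 and 0.585 matches per kb, against a median of 0.227 over the 15082 anchors of double positive loops, of which 56.3% hold it. GATAA occurred 13 and 11 times (2.8 and 2.15 per kb, median 1.12) and TGTTTAC in neither (34.5% of anchors hold it). ACAAT occurred 9 and 11 times (1.94 and 2.15 per kb, median 1.37), AGGTCA 4 and 5 times (0.861 and 0.975 per kb, median 0.597) and CCAAT 6 and 3 times (1.29 and 0.585 per kb, median 1.25). GGGCGG occurred in neither anchor (median 0.75 per kb, and 79.8% of anchors hold it). Each stretch of 30 bases is from the plus strand of mm9, with TGANTCA in capitals.
Lama1 chr17:68032027-68032056: agttctactacTGAGTCAtattctcagatt
Lama1 chr17:68035110-68035139: cttaaagaaggTGACTCActcggaggactt
Lama1 chr17:68035186-68035215: cacggtgtgaaTGAATCAggtacaatgaat
Lama1 chr17:68036156-68036185: caggatgtggcTGACTCAgtttcctgactt
Lama1 chr17:68036301-68036330: gtggtagataaTGATTCActggggaaagaa
Lamb1 chr12:31931137-31931166: gccagctgtgaTGATTCAggaggagttctt
Lamb1 chr12:31931275-31931304: aagagactccgTGACTCAtgggttaaatct
Lamb1 chr12:31932937-31932966: ggcaggggatgTGAATCAgtgtacttgcct
The intronic partner of the collagen IV start held no TGANTCA and 7 GATAA (2.26 per kb), and the intronic partner of Hspg2 held 2 TGANTCA and 2 GATAA.

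Hspg2, which encodes perlecan, has 1 anchor at its start (chr4:137023718-137027467). It had 35, 30, 20, 14 and 38 read pairs in the double positive libraries and 3 to 16 (median 7.5) in bulk. In CPM these were 140 ± 20.2 (SD, n = 5) and 86.6 ± 22.5 (SD, n = 12), with 3 of 5 double positive libraries above every bulk library. The log2 fold change was 0.70 ± 0.23 (SE; adjusted p = 0.00899, edgeR). The call was lost over spans of at least 20 kb (0.41, adjusted p = 0.225), with the start site inside the anchor (0.52, adjusted p = 0.0611), with only the outermost start site (0.52, adjusted p = 0.0575) and in libraries thinned to the smallest total (0.60, adjusted p = 0.095).

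The Hspg2 start met a first partner inside the gene (chr4:137034798-137038033, span 10823 bp) in 15, 15, 13, 5 and 15 double positive read pairs and in 13 bulk read pairs from 8 libraries, a log2 fold change of 1.84 ± 0.45 (SE), or 3.09 without a filter (adjusted p = 0.014, edgeR). A second partner lay upstream, near the start site of 1700013G24Rik (chr4:137003859-137007040, span 20143 bp), with 29 double positive and 6 bulk read pairs (log2 fold change 1.72 ± 0.60, SE), which was not called without a filter (2.93, adjusted p = 0.253, edgeR). A further partner, at the start of Usp48, a deubiquitinase (chr4:137148598-137151440), had 12 double positive and 3 bulk read pairs. At the nearest anchor outside the window, 5434 bp from the start (chr4:137015735-137019200), there were 33 bulk and no double positive read pairs.

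Lamb2, the beta chain of laminins of mature membranes, lies in a gene-dense stretch of chromosome 9, and 127 of its 156 double positive read pairs (81.4%) went to the start regions of other genes, as did 67 of 94 in bulk (71.3%). It had 48, 29, 19, 26 and 34 read pairs in the double positive libraries and 1 to 23 (median 6.5) in bulk. In CPM these were 162 ± 27.8 (SD, n = 5) and 86.2 ± 84.6 (SD, n = 12). No double positive library lay above every bulk library, since bulk library 5 reached 336. The log2 fold change was 0.92 ± 0.33 (SE; adjusted p = 0.0166, edgeR), and in the 10 libraries with replicate numbers 1 to 5 the call was lost (0.60, adjusted p = 0.16).

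The loops of Lamb2 with the most double positive read pairs all left its start anchor (chr9:108380361-108382940). The loop to the start of Ccdc71 (chr9:108361987-108364648, span 18333 bp) had 32 double positive and 10 bulk read pairs. The loop to the start of the deubiquitinase gene Usp19, which overlaps the end of Lamb2 (chr9:108392036-108394523), had 20 and 5. The loop to the shared start region of Qars and Qrich1 (chr9:108417801-108421624) had 18 and 1. Over all loops of Lamb2, these partner anchors had 16, 11 and 3 bulk read pairs, with the same double positive read pairs. The first had a log2 fold change of 1.22 ± 0.53 (SE) and the next 1.45 ± 0.64 (SE), and neither was called without a filter (2.46 and 2.64, adjusted p = 0.368 for both, edgeR).

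Lama5, the alpha chain of laminins that replace the embryonic form in many tissues, ran the other way. It had 14, 11, 2, 4 and 8 read pairs in the double positive libraries and 12 to 68 (median 26.5) in bulk. In CPM these were 37.0 ± 15.6 (SD, n = 5) and 328 ± 91.4 (SD, n = 12), and every double positive library lay below every bulk library. The log2 fold change was -3.02 ± 0.28 (SE; adjusted p = 5.32e-11, edgeR), and -1.06 (adjusted p = 0.0169) over loops between anchors that both groups use. The loop between its start anchor and an anchor just inside the gene (chr2:179953452-179957779, span 5639 bp) had 41 bulk read pairs from all 12 libraries and none in double positive libraries, and no double positive loop uses that inner anchor at all. All 39 double positive read pairs of Lama5 went to the start regions of other genes, 15 of them to Cables2, of which 9 met an anchor that also lies at Rps21.

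Lama5 lies on chromosome 2 beyond 150 Mb, where bulk read pairs were in excess. In the bulk libraries 5.27% ± 0.937 (SD, n = 12) of read pairs fell there, and in the double positive libraries 2.24% ± 0.0605 (SD, n = 5). Lamc1 lies on chromosome 1 beyond 130 Mb, where the shares were 10.7% ± 1.79 (SD, n = 12) and 1.92% ± 0.0691 (SD, n = 5). Of the genes named further below, Lamb3 lies in the same part of chromosome 1, and Hnf4a and Sdc4 lie in that of chromosome 2. The part of these excesses in the values of these genes was not tested.

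Lamc1, the gamma chain shared by most laminins, had 323 bulk read pairs in 204 loops, 10 to 52 per library, or 290 ± 115 CPM (SD, n = 12), and none in the double positive libraries. Its 6 anchors occur in no double positive loop, and the files do not show whether these regions were called as anchors in those libraries. The nearest anchor of a double positive loop lay 25612 bp from a Lamc1 start site. Double positive loops used none of the 17 anchors in the gene body and 24 of the 273 anchors within 1 Mb. Over the genome they use 15082 of 216081 anchors, so that the absence in the gene body is not read as particular to Lamc1. In bulk the start anchor (chr1:155178538-155182377) met an upstream intergenic anchor (chr1:155200781-155204344, span 22105 bp) in 16 read pairs from 10 libraries and introns of the gene (chr1:155161463-155163676 and chr1:155166935-155170016) in 10 read pairs each. No single Lamc1 loop was deep enough to test.

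The nidogens gave little signal in either group. Nid2 had 23 bulk read pairs in 8 of 12 libraries and none in the double positive libraries, and 6 of the 23 lay in a loop from its start (chr14:20568181-20573862) into its own intron (chr14:20577809-20580778). Both its anchors occur in bulk loops alone, and the nearest anchor of a double positive loop lay 71477 bp away. Nid1 (chromosome 13, 13529869 to 13604542) had no anchor within 5 kb: the nearest, in an intron, lay 11609 bp from the start site with 7 bulk read pairs, and the 7 anchors in its gene body had 62 bulk and no double positive read pairs.

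Across loci, 9 loops were deep enough to test. The collagen IV loop, on which the locus was chosen, and 7 further loops were called higher, and the Lama5 loop was called lower, where 38.1% of the 5369 loops tested in all were called higher and 22.4% lower, with a median log2 fold change of 0.78. Nothing is read from this count, since the 8 loops had fewer than 20 read pairs in bulk and passed the filter through the double positive libraries, and the Lama5 loop passed it through bulk and was not called without a filter (adjusted p = 0.189). The 9 loops spanned 5639 to 20143 bp. For loops TMM lowers the double positive values 5.11-fold against the bulk values, and by library size alone the median of all loops was 2.99, with the same 8 loops higher and the same 1 lower.

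**Figure D3:**
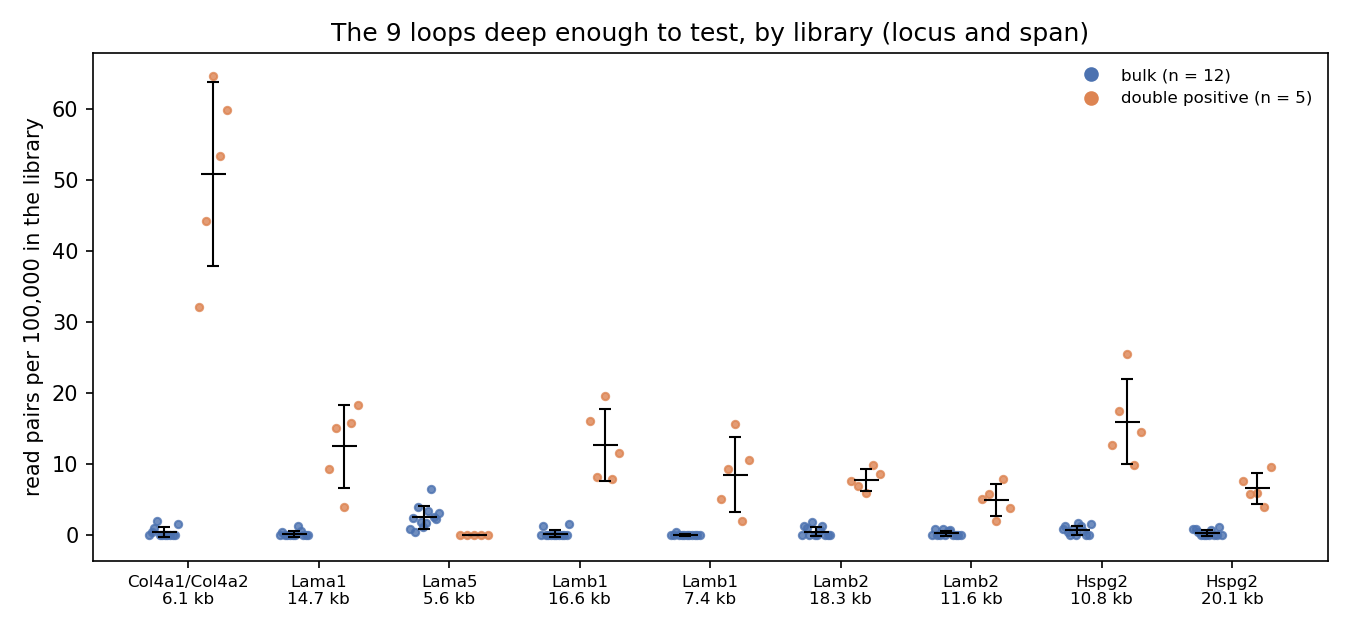
Read pairs per 100000 of each library, scaled by depth only, in the 9 loops deep enough to test, named by locus and span. Points are libraries and bars the mean ± SD; the Col4a1/Col4a2 loop stands at 50.9 ± 13.0 in the 5 double positive and 0.408 ± 0.697 in the 12 bulk libraries, and the Lama5 loop is at 0 in all double positive libraries.

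Summed over all loci, a smaller share of double positive read pairs lay in long loops. For loops over 100 kb this share was 24.2% ± 4.84 (SD, n = 5) in the double positive and 47.6% ± 5.95 (SD, n = 12) in the bulk libraries, a difference of -23.4 percentage points. Since the values of Col4a1, Col4a2 and Lamc1 were known when they were chosen, the test was made without them. The share was then 19.9% to 33.3% in the double positive and 25.4% to 61.4% in the bulk libraries, so that the groups overlapped, with means of 25.5% ± 5.0 (SD, n = 5) and 43.4% ± 8.59 (SD, n = 12). The difference was -18.0 points (two-sided exact permutation test, p = 0.000485, and 0.00097 adjusted over the 2 shares tested). Loops of all protein-coding genes differed in the same direction, with 45.1% ± 0.309 (SD, n = 5) against 54.4% ± 1.06 (SD, n = 12; two-sided exact permutation test, p = 0.000162). Whether the share of these loci differed by more than that of all genes was not tested. Without Lamc1 and Lama5, with collagen IV, the difference was -23.7 points. Lama5 alone ran the other way, with 51.3% of its pooled double positive and 43.4% of its bulk read pairs in loops over 100 kb.

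The share of read pairs whose partner anchor lay within the same gene was 44.4% ± 8.71 (SD, n = 5) in double positive and 29.6% ± 5.92 (SD, n = 12) in bulk libraries, a difference of 14.9 points, given as a description since it rests on the collagen IV loop. Without Col4a1, Col4a2 and Lamc1 the difference was -3.20 points (two-sided exact permutation test, p = 0.42), without Col4a1 and Col4a2 alone it was -1.95 points, and over spans of at least 20 kb it was -9.06 points. By locus, pooled, the share was 84.0% in double positive and 60.9% in bulk for collagen IV, 46.0% and 32.3% for Hspg2, 28.6% and 17.5% for Lamb1, 12.8% and 11.7% for Lamb2, and 0% against 43.3% and 25.3% for Lama1 and Lama5.

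**Figure D4:**
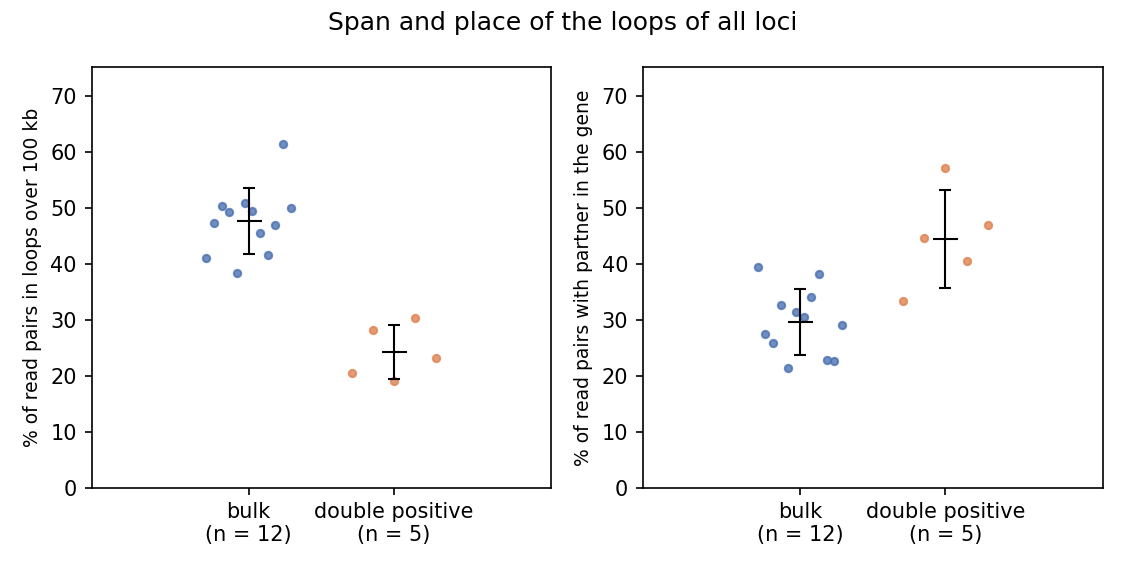
Percent of the read pairs of all loci that lie in loops over 100 kb (left) and in loops whose partner anchor lies in the same gene (right), per library, with mean ± SD. On the left the 5 double positive libraries lie below all 12 bulk libraries; on the right the groups overlap, with 33.3% in the lowest double positive and 39.4% in the highest bulk library.

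Of 24 further basement membrane components, 16 could be tested, of which 2 were called higher and 11 lower (20.6% and 42.8% of all genes). Nothing is read from the genes lower, since 10 of the 11 passed the filter through bulk alone, 8 of them without a double positive read pair. Those higher were Sparc, a collagen-binding matricellular protein abundant in yolk sac endoderm (log2 fold change 1.61 ± 0.22, SE, adjusted p = 1.87e-07, edgeR), and Tinagl1, a matrix protein (1.51 ± 0.22, SE, adjusted p = 4.51e-07, edgeR). The list includes 14 genes with bulk but no double positive read pairs, among them Lamb3, Fbln1 and Lama4 with 154, 78 and 54 bulk read pairs. The share of such genes over all protein-coding genes was not counted, so nothing is read from this number. Over spans of at least 20 kb the call of Sparc was lost (0.37, adjusted p = 0.311). By library size alone 4 genes of the list were higher and 9 lower (55.3% and 26.2% of all genes). Over loops between anchors that both groups use, 7 could be tested, of which 3 were higher and 1 lower (25.7% and 10% of all genes).

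Among 12 receptors of laminin and collagen IV, 11 were tested, 1 was higher and 3 were lower (20.6% and 42.8% of all genes), with a median of -0.57 against -0.52 for all genes. Dag1, dystroglycan, a laminin receptor with 70 double positive and 16 bulk read pairs, reached the filter through the double positive libraries. Its log2 fold change was 2.27 ± 0.43 (SE), or 2.28 without a filter (adjusted p = 2.41e-05, edgeR). The integrin alpha chain Itga6 (-1.98 ± 0.39, SE, adjusted p = 4.35e-05, edgeR) and the proteoglycan Sdc4 (-1.52 ± 0.31, SE, adjusted p = 8.32e-05, edgeR) were lower, and so was the collagen receptor Ddr1 (-0.57 ± 0.24, SE, adjusted p = 0.0415, edgeR). By library size alone 6 of the 11 were higher and none lower (55.3% and 26.2% of all genes), and Ddr1 stood at 1.20, Sdc4 at 0.25 and Itga6 at -0.22, where the median of all genes was 1.21. Relative to that median Ddr1 stood at -0.018, Sdc4 at -0.96 and Itga6 at -1.43, and with TMM Ddr1 stood at -0.048 and Itga6 at -1.46. Over loops between anchors that both groups use, 9 were tested, 3 were higher and 1 was lower (25.7% and 10% of all genes), and Itga6 (-0.20, adjusted p = 0.784) and Sdc4 (-0.58, adjusted p = 0.227) were not called. The call of Ddr1 was lost in thinned libraries (-0.065, adjusted p = 0.873), over spans of at least 20 kb (adjusted p = 0.133), with DESeq2 (adjusted p = 0.0927) and without a filter (adjusted p = 0.0522). It was also lost without bulk library 3 or 6 or double positive library 1, 2, 3 or 5, with an adjusted p of up to 0.157.

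Markers of cell types that the 2 groups could hold were read in the same way. Of 18 endoderm genes, 17 were tested, 7 were higher and 4 lower (20.6% and 42.8% of all genes), with a median log2 fold change of 0.63 against -0.52. Over loops between anchors that both groups use, 14 were tested, 9 were higher and none was lower (25.7% and 10% of all genes), and by library size alone 13 were higher and 3 lower (55.3% and 26.2% of all genes). With TMM, all 4 lower passed the filter through bulk alone and 1 of the 7 higher through the double positive libraries alone. Over loops between anchors that both groups use, a gene could also pass through 1 group alone. Thbd, with 18 bulk read pairs in all, did so, and nothing is read from the counts of any list over these loops. Gata4 (1.73 ± 0.24, SE, adjusted p = 2.13e-07, edgeR) and Foxa2 (1.51 ± 0.26, SE, adjusted p = 5.5e-06, edgeR), transcription factors of endoderm, were higher. The endoderm factors Gata6 (0.022, adjusted p = 0.973, edgeR), Sox7 (0.63, adjusted p = 0.166, edgeR) and Sox17 (-0.57, adjusted p = 0.404, edgeR) were not called. Dab2 was lower (-1.48, adjusted p = 0.00632, edgeR), with 71 bulk and 19 double positive read pairs, and Hnf4a and Lrp2 had no double positive read pair. Thbd, thrombomodulin, with 53 double positive and 18 bulk read pairs, reached the filter through the double positive libraries and stood at 1.73 without a filter (adjusted p = 0.000864, edgeR). Summed over the list, the level reached 1334 ± 91.1 CPM (SD, n = 5) in the sorted and 1026 ± 220 CPM (SD, n = 12) in the bulk libraries, with the parathyroid hormone receptor gene Pth1r the most abundant in the sorted (243 CPM) and Hnf4a in the bulk libraries (251 CPM). Of 12 neural genes, 9 were tested and 8 were lower (42.8% of all genes), with a median of -3.42. Nothing is read from this count or median, since 7 of the 8 passed the filter through bulk alone. Over loops between anchors that both groups use 6 of 7 were lower (10% of all genes), and by library size alone 7 of 9 were lower and 1 was higher (26.2% and 55.3% of all genes). Pou3f2 (-5.15) and Neurod1 (-4.60), transcription factors of neurons and their precursors, had the lowest log2 fold changes. They had 8 and 5 double positive read pairs against 374 and 169 in bulk, and so passed the filter through bulk. The summed level of the neural list was 142 ± 25.3 CPM (SD, n = 5) and 1349 ± 250 CPM (SD, n = 12), with Pax6 the most abundant in bulk (349 CPM) and Tubb3 in the sorted libraries (43.9 CPM), and Sox1, Sox3 and Map2 had no read pair in either group. Of 7 pluripotency genes, 4 were tested, 3 were higher and 1 was lower (20.6% and 42.8% of all genes), with a median log2 fold change of 1.04. Klf4 (1.45), Pou5f1 (1.06) and Tdgf1 (1.02) were higher. Esrrb, with 132 bulk and no double positive read pairs, was lower and passed the filter through bulk alone. The call of Pou5f1 was lost without double positive library 2 (adjusted p = 0.186), over loops between anchors that both groups use (adjusted p = 0.0825), over spans of at least 20 kb (adjusted p = 0.0953), with only the outermost start site (adjusted p = 0.0609) and in thinned libraries (0.20, adjusted p = 0.75), and that of Klf4 over spans of at least 20 kb (0.61, adjusted p = 0.309). Nanog and Dppa5a also had none in double positive libraries, and the sums were 238 ± 64.8 CPM (SD, n = 5) and 221 ± 101 CPM (SD, n = 12). The sorting markers did not pass the test, with log2 fold changes of 1.05 ± 0.57 for Epcam (SE; adjusted p = 0.107, edgeR) and 0.65 ± 0.44 for Cd38 (SE; adjusted p = 0.195, edgeR). Cd38 was called higher over loops between anchors that both groups use (1.86, adjusted p = 0.00456), with a start site window of 2.5 kb (1.01, adjusted p = 0.0466) and by library size alone (2.38, adjusted p = 5.63e-06). Epcam, with 13 bulk and 25 double positive read pairs, reached the filter through the double positive libraries. It stood at 2.75 by library size alone, for which no p is given, and at 1.06 without a filter (adjusted p = 0.105, edgeR). By library size alone the median of all genes was 1.21. The part of these cell types in the values of the basement membrane genes was not tested.

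**Figure D5:**
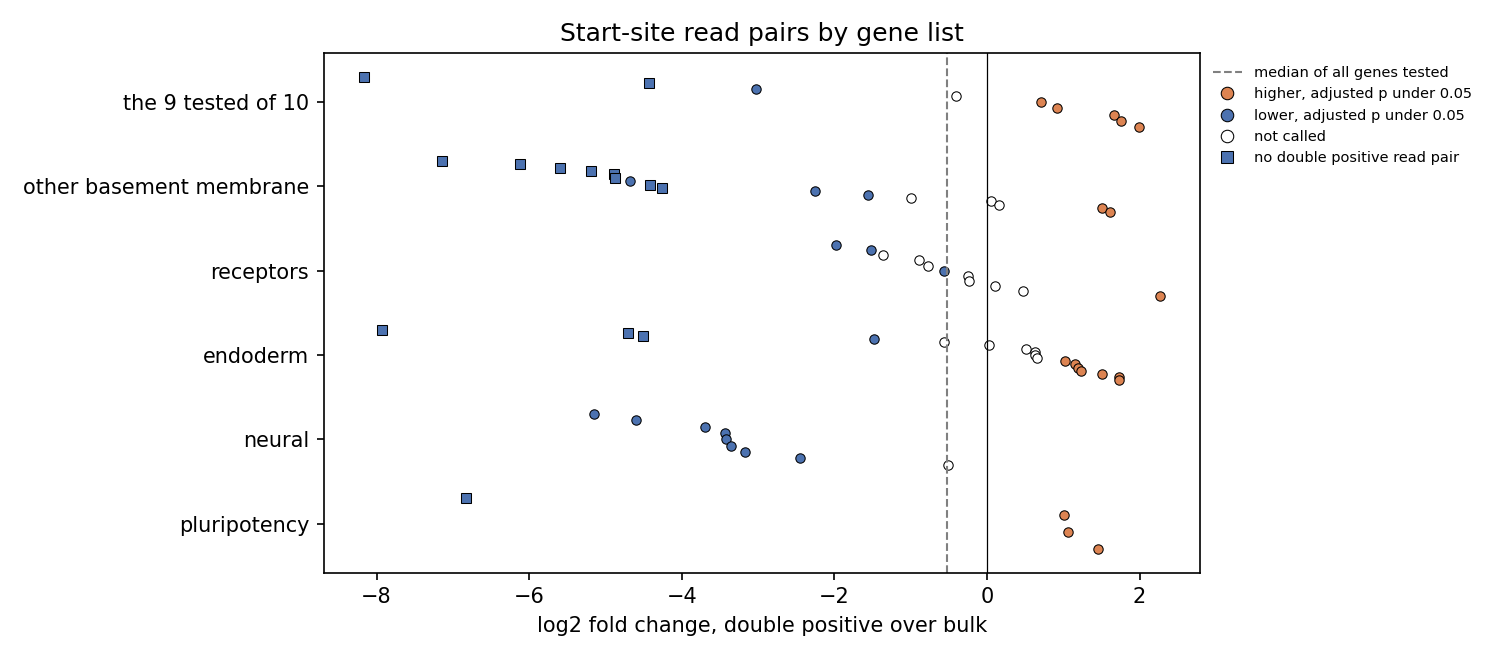
Log2 fold change of read pairs per gene, double positive over bulk (x, TMM scaled), for the basement membrane genes tested and 5 lists (y). Squares mark genes without a double positive read pair, whose fold change depends on a prior count and is no measured size. The dashed line is the median of all genes, at -0.52. Of the 9 neural genes tested 8 lie far left of it, of which 7 passed the filter on low counts through bulk alone.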

How the data were processed

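The authors processed the H3K27ac HiChIP reads with HiC-Pro on mm9 and called loops with hichipper, and deposited, for each of the 17 libraries, loop counts, the raw number of read pairs that join each pair of anchors. Pairs of anchors with a count of 0 are not in the files. Overlapping anchors of all libraries were joined (700 read pairs whose anchors were joined into 1 were dropped), and read pairs were summed over the loops with an anchor within 5 kb of any start site in the mm9 annotation (GENCODE vM1) of each of 22380 protein-coding genes, of which 19244 had such an anchor. Genes and loops with at least 20 read pairs, in at least 5 libraries, were tested with edgeR 4.0.16 in R 4.3.3 (TMM, quasi-likelihood test, Benjamini-Hochberg over all features tested, adjusted p under 0.05). Shares were compared with exact permutation tests over all 6188 assignments of libraries (scipy 1.17.1, numpy 2.4.6, pandas 2.3.3).

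Replicates of a group were compared by chi-square tests of read pairs per anchor and differed beyond counting error in all 66 bulk and 10 double positive pairs. The chi-square divided by its degrees of freedom was 1.427 to 3.201 in bulk pairs. In double positive pairs it was 1.051 to 1.174, so that these libraries differed little more than by counting error. PCR copies are not independent molecules, so floors (3 read pairs) cover counting error only, and only that of the bulk group.

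The genes, lists, motifs and tests were chosen with earlier results of these data known. Named were all 10 genes, per locus the 3 loops with the most read pairs in each group and every loop tested, the nearest anchors inside and outside the window, and of each list up to 3 called genes with the largest change in each direction, beside the sorting markers. Some genes that this rule names are not reported here. Alternatives were library size alone, DESeq2 1.42.0, other filters, anchors that both groups use, spans of at least 20 kb, other start site windows, thinning to 50508 read pairs, exclusion of distal chromosomes 1 and 2, a replicate block and each library left out. The outermost start site and the 10 block libraries without the block, and the shares without Col4a1, Col4a2 and Lamc1, were added after the data were seen. Sequences are from the mm9 reference.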

Additional observations from a re-analysis of the deposited data

Results flagged for a closer look

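Of 21 sets of values in the 5 double positive libraries (the 10 genes, the 9 tested loops and both shares), those of Col4a1 and Col4a2 had a library far from the others. Double positive library 1 had 179 CPM for Col4a1, and the same value for Col4a2, whose double positive loops are the same, against 284 to 308 in the other 4 libraries, a gap of 0.812 of the whole range. The library had 49 read pairs at this locus. About 1 in 20 such groups would be marked by chance.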

How the results depend on the processing

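By library size alone, 7800 genes were higher and 3702 lower in place of 2906 and 6040, and 4129 loops were higher and 740 lower in place of 2044 and 1203. Lama1 then stood at a log2 fold change of 1.34, Sdc4 at 0.25 and Ddr1 at 1.20, where the median of all genes was 1.21 in place of -0.52. With anchors that both groups use, 988 genes and 552 loops were lower, and Lama1 stood at 1.67. With at least 50 read pairs, 3786 genes were lower, 334 loops higher and 197 lower. Without a filter, 9771 genes and 44 loops were lower. With libraries thinned, 3040 genes were lower, 1095 loops higher and 130 lower. Over spans of at least 20 kb, 413 loops were lower, Col4a2 stood at -0.060, and the difference of the share within the same gene turned to -9.06 points; without Col4a1 and Col4a2 it turned to -1.95 points, and without Lamc1 as well to -3.20 points. The cause of these shifts was not tested.

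Libraries of the 2 groups share replicate numbers 1 to 5. Same-numbered libraries did not deviate together (r between -0.0143 and 0.0104 over 5 pairs, and 1 of 5 correlated best with its own number), so the numbers do not pair the libraries. With the replicate block on these 10 libraries, 3966 genes were lower, 827 loops higher and 429 lower, Lamb2 stood at 0.65 (adjusted p = 0.0884, edgeR) and Hspg2 at 0.64 (adjusted p = 0.0654, edgeR). The same 10 libraries without the block gave 1142 loops higher and 486 lower. Lamb2 then stood at 0.60 (adjusted p = 0.16, edgeR) and Hspg2 at 0.65 (adjusted p = 0.0283, edgeR). The calls of both Lamb2 loops and of the upstream Hspg2 loop were lost in both fits and without a filter, and that of the Lama5 loop without a filter (-4.91, adjusted p = 0.189, edgeR).

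With each library left out in turn, genes higher ranged from 2572 to 2941 and lower from 5517 to 5940, loops higher from 1206 (without double positive library 1) to 1924 and lower from 834 to 1182. Without double positive library 2 or 5, 1359 and 1251 loops were higher. The difference in loops over 100 kb ranged from -24.9 to -22.1 points and that within the same gene from 11.7 to 17.6 points. Of the 9 genes, Nid2 fell under the filter without bulk library 2 or 6 and had no call there; the other 8 kept theirs in all 17 fits. The Lamb2 loop to Ccdc71 lost its call in 11 of 17 fits (adjusted p of up to 0.165) and that to Usp19 in 10 of 16 (up to 0.137), and both with DESeq2 (0.059 and 0.0733). Low counts limit single loops: 9 of 752 could be tested.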
